A study of Mus musculus with 17 samples.

Results

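Multipotent progenitors (MPP) were compared with granulocyte-monocyte progenitors (GMP) from mouse bone marrow, as the granulocyte-monocyte program set against the multipotent state. Both groups were chosen by the population in the array titles, which gave 3 MPP and 3 GMP arrays, 6 of the 17 mRNA arrays of the series. The other arrays hold LT-HSC, ST-HSC, common myeloid progenitors (CMP) and megakaryocyte-erythroid progenitors, the remaining stages of a study of miRs and mRNAs in early hematopoiesis. All cells came from untreated female C57Bl/6 mice of 6 to 8 weeks of age with no engineered allele, and the methods state that 10 to 20 mice were pooled for each replicate. In both groups bone marrow was first depleted of cells with B220, CD3, GR-1 or Ter119 and enriched for c-kit. MPP were then sorted as Sca-1+ CD34+ FLT3+ cells in the HSC sort, and GMP as Sca-1- CD34+ cells high for the Fc gamma receptor in a separate myeloid sort, so population and sort cannot be told apart. These gates describe cells that were not separated further, and each array reads the summed RNA of its pool.

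MPP have lost long-term self-renewal but can still form myeloid and lymphoid blood cells, and they switch on some lymphoid genes before any lineage is fixed. GMP are a later stage committed to neutrophils, monocytes and related granulocytes. In GMP the factors PU.1 and C/EBP drive the genes of the primary granules, in which serine proteases and myeloperoxidase are stored, and this cargo is made on the endoplasmic reticulum.

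Each level below is a log2 intensity of the probe of a gene after quantile normalization over the 17 arrays, and each difference is MPP minus GMP on that scale, so that negative values are higher in GMP. Levels of different genes are not compared, since probes differ in brightness. A gene passed the test when the adjusted p of limma, taken over all 41174 probes, was under 0.05. Of 28090 genes 6262 passed (22.3%), of which 2851 were higher in GMP (10.1% of all genes) and 3411 in MPP (12.1%), around a median difference of -0.01 over all genes. More than 4-fold differences were found for 526 of the genes higher in GMP and 1131 of those higher in MPP. Every array of the lower group was near background for 183 of the former and 734 of the latter. For such genes only a lower bound of the fold is given. The 3 arrays of the groups did not overlap for 44.9% of all genes, 25.4% with GMP above and 19.5% with MPP above. Over the 41174 probes 9258 passed (22.5%), 4939 higher in GMP (12.0%) and 4319 in MPP (10.5%). Where 0 genes of a list passed in 1 direction, 0 had an unadjusted limma p under 0.05 in that direction, apart from 1 lymphoid gene toward GMP, 3 DNA replication genes toward MPP, and 1 and 3 B cell genes toward GMP and MPP. Between 50% and 57% of spots were well above background on the GMP arrays and between 59% and 70% on the MPP arrays, a difference whose part in these counts was not tested. Array pairs correlated at 0.976 to 0.992 within MPP, 0.977 to 0.984 within GMP and 0.930 to 0.962 between them.

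The arrays were also scanned in different runs. MPP 2 and MPP 3 lay on slide 5 of run 3, GMP 1 and GMP 2 on slides 2 and 1 of run 1, and the unnumbered MPP and GMP arrays shared slide 3 of run 2. Outside that pair, population and run cannot be told apart. Of all genes 4450 passed with the run as a block in the fit, and every one of the 6262 genes kept its sign. Within the pair on slide 3 the sign was the same for 2840 of the 2851 genes higher in GMP and for 3374 of the 3411 higher in MPP. The unnumbered MPP array was the highest of the 3 MPP arrays for 1883 of the 2851 genes higher in GMP, or 66.0%, against 44.2% of all genes. The values of every array are therefore given for the main genes, and those of the other genes higher in GMP include this array without showing it.

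The mRNAs of the sort markers were read first. The mRNA of Fcgr3, the Fc gamma receptor of the GMP gate, was at 7.03, 7.04 and 8.91 in MPP 2, MPP 3 and the unnumbered MPP array, and at 13.43, 13.60 and 13.79 in the unnumbered GMP array, GMP 1 and GMP 2. It was 61.7-fold higher in GMP (adjusted p = 8.98e-05). Its difference of -5.95 was -4.39 with the run as a block (adjusted p = 0.00462). Fcgr2b, the inhibitory receptor seen by the same antibodies, was at 9.20 ± 0.08 in MPP and 11.20 ± 0.13 in GMP (SD, n = 3 arrays each), a 4.0-fold difference whose adjusted p of 0.00317 became 0.0563 with the run as a block. Flt3, the cytokine receptor of the MPP gate, was at 9.93 ± 0.18 in MPP and 6.05 ± 0.40 in GMP (adjusted p = 5.6e-05). Cd34, positive in both gates, was still 5.13-fold higher in MPP (adjusted p = 0.00205). Ly6a, which encodes the Sca-1 that was present in 1 gate and absent from the other, was at 9.41, 9.80 and 10.59 in MPP and 10.25, 8.95 and 9.92 in GMP. The groups overlapped, with a difference of 0.23 ± 0.52 (SE, adjusted p = 0.808), while CMP, also sorted as Sca-1-, was at 7.15 ± 0.71 (SD, n = 3). The mRNA of Kit was 1.92-fold higher in MPP (adjusted p = 0.0115), and it no longer passed with the run as a block (adjusted p = 0.208). These markers set the gates at the protein level. Fcgr3, Fcgr2b and Flt3 differed as the gates did and Ly6a did not, whereas CD34 and c-kit were positive in both.

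The genes of primary granules and of early granulocytes were read next. Of 19 such genes 14 were higher in GMP, against 10.1% of all genes, and 0 were higher in MPP, with a median difference of -2.42. Elane, which encodes neutrophil elastase (named Ela2 on the array, probe at chr10:79350763-79350822 of mm9), was at 8.35, 8.18 and 11.16 in MPP 2, MPP 3 and the unnumbered MPP array and at 15.11, 14.18 and 14.21 in the unnumbered GMP array, GMP 1 and GMP 2. All GMP arrays were above all MPP arrays, a 38.7-fold difference in the fit (adjusted p = 9.51e-04). The pair on slide 3 differed by less, at -3.95 against -5.27. Its neighbor on chromosome 10, Prtn3 (proteinase 3), was at 8.85, 8.99 and 10.30 in MPP and 14.37, 14.25 and 14.41 in GMP, 31.1-fold higher in GMP (adjusted p = 2.24e-04). Ctsg, the third granule protease, was at 13.21, 13.03 and 13.89 in MPP and 18.48, 17.14 and 17.78 in GMP, a 21.5-fold difference (adjusted p = 5.25e-04).

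Ms4a3, a membrane protein known from granulocyte-monocyte progenitors, was at 9.75, 9.6 and 12.05 in MPP and 16.35, 15.47 and 15.51 in GMP, 39.7-fold higher in GMP (adjusted p = 2.92e-04). Mpo, the myeloperoxidase itself, was already bright in MPP, at 15.86, 15.97 and 17.35, and stood at 18.89, 18.66 and 18.89 in GMP. Its difference of -2.42 ± 0.67 (SE, adjusted p = 0.0199) was -1.35 with the run as a block and no longer passed (adjusted p = 0.412). Hp (haptoglobin), Igsf6, Clec5a, Cst7 (an inhibitor of cathepsins) and Nkg7 differed by -4.58, -4.13, -3.64, -2.95 and -2.69. Gstm1, the serine protease Prss57, Calr and Ctsc (the peptidase that activates the granule proteases) differed by -2.36, -2.34, -2.01 and -1.09. The 5 genes that did not pass were Fcnb (-2.28, adjusted p = 0.122), Serpinb1a (-0.76), Plac8 (-0.69), Lyz2 (-0.45) and Srgn (-0.22). For Lyz2 (lysozyme) and Srgn (the granule proteoglycan) the arrays of the groups overlapped. Mpo, Gstm1 and Prss57 lost their call with the run as a block and the other 11 kept it. Elane, Prtn3, Ctsg and Ms4a3 kept theirs with smaller differences of -3.80, -3.54, -3.80 and -4.09. The summed intensity of the 19 probes was 341000, 318000 and 537000 in MPP 2, MPP 3 and the unnumbered MPP array against 1930000, 1110000 and 1290000 in the unnumbered GMP array, GMP 1 and GMP 2.

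**Figure D1:**
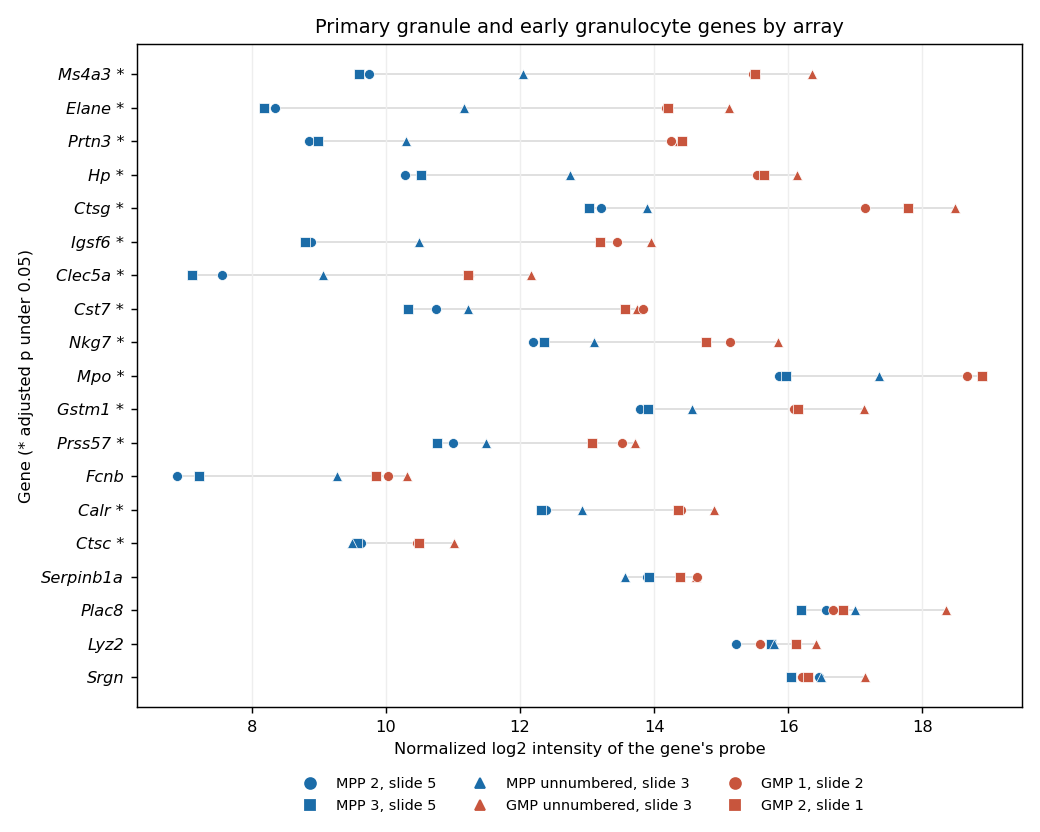
Normalized log2 intensity (x axis) of the 19 primary granule and early granulocyte genes (rows) on each MPP array (blue) and GMP array (red), with triangles for the pair on slide 3 and an asterisk for genes with an adjusted p under 0.05. The unnumbered MPP array lay above MPP 2 and MPP 3 for 17 of the 19 genes, and for Elane at 11.16 it was still below the lowest GMP array at 14.18.

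Promoter sequence was read for the granule genes that passed, because PU.1 is known to act there. The windows were RefSeq promoters of GRCm38.p6, 250 bases before to 50 bases after each start, and the motif was GAGGAAG on either strand. Of 12 genes with a window, 6 held it (Mpo, Elane, Prtn3, Ctsg, Ctsc and Clec5a), against 15.4% of the 27025 genes with a window. The C/EBP motif TTGCNNAA was held by 2 of the 12 (Ms4a3 and Cst7), against 12.2%. The monocyte and dendritic cell genes higher in GMP were searched too. Of their 9 genes with a window, 3 held the PU.1 motif and 1 the C/EBP motif. In these lines, written 5′ to 3′ on the strand of the gene, the capitals mark the PU.1 motif of the proteases and of Mpo, 85, 95, 216 and 224 bases before the start.
Elane, chr10:79886216-79886245 (+): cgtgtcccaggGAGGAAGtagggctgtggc
Prtn3, chr10:79879561-79879590 (+): caaactggaagGAGGAAGtgggacccacag
Ctsg, chr14:56102772-56102801 (-): tcccagaaggaGAGGAAGaaaaggaagtag
Mpo, chr11:87793549-87793578 (+): gtggagagagaGAGGAAGttgcctttgtcc
These matches describe letters in a window, not binding.

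Genes of the later neutrophil granules passed toward GMP at about the share of all genes. Of 17 genes 2 were higher in GMP, or 11.8% against 10.1% of all genes, and 0 in MPP. Their median of -0.06 was 0.76 with the run as a block and -0.42 without the unnumbered MPP array. The pair that passed were Ltb4r1, the leukotriene B4 receptor (-2.92, adjusted p = 0.00231), and Il8rb, a chemokine receptor now called Cxcr2 (-2.76, adjusted p = 0.00177). When the run was a block, Ltb4r1 no longer passed (adjusted p = 0.0803), Il8rb did (adjusted p = 0.0479), and so did the granule protease gene Mmp8 (-1.36, adjusted p = 0.0204). S100a8, a calprotectin chain, was at 12.75, 12.67 and 14.63 in MPP 2, MPP 3 and the unnumbered MPP array and at 14.54, 13.48 and 12.93 in the unnumbered GMP array, GMP 1 and GMP 2. Camp, which encodes cathelicidin, was at 11.95, 11.90 and 14.10 in MPP and at 13.26, 11.31 and 10.50 in GMP. For both genes the groups overlapped and the 2 arrays of slide 3 were the highest of their groups. The same held over the list, whose summed intensity was 317000 and 263000 on slide 3, against 86500 and 91100 in the other MPP arrays and 101000 and 68300 in the other GMP arrays. The unnumbered MPP array was the highest of its group for 16 of the 17 genes. These genes mark mature neutrophils, and their part in the higher granule values of the same array was not tested.

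Among monocyte and dendritic cell genes 14 of 22 were higher in GMP and 1 in MPP, with a median of -1.63. Ly6c1, a Ly6C antigen of monocytes whose probe may also read its near-identical paralog, was at 8.10, 8.21 and 10.05 in MPP and 14.54, 14.17 and 14.55 in GMP, 49.6-fold higher in GMP (adjusted p = 3.58e-05). Its difference of -5.63 was -4.29 with the run as a block and -4.48 in the pair on slide 3. F13a1, the A chain of coagulation factor XIII, was at 9.53, 9.65 and 9.95 in MPP and 14.55, 14.18 and 14.29 in GMP, 24.8-fold higher (adjusted p = 4.67e-07). Here the arrays of each group lay close together and the pair on slide 3 gave the same size, at -4.60 against -4.63. Csf1r, the M-CSF receptor, was at 9.10, 9.04 and 8.70 in MPP and 10.95, 11.76 and 12.38 in GMP, 6.72-fold higher (adjusted p = 0.00134). Clec7a, the beta-glucan receptor, was 12.2-fold higher in GMP (adjusted p = 3.10e-06). Ms4a6d, Cx3cr1, Ms4a6c, Clec12a, Emr1, Cd14, Fcer1g, Ly86, Tyrobp and Ccr2 differed by -3.15, -2.97, -2.51, -2.44, -2.35, -2.33, -1.70, -1.56, -1.46 and -1.10. The exception was Ctss, a cathepsin of antigen-presenting cells, at 13.58, 13.64 and 13.37 in MPP and 11.91, 11.59 and 12.11 in GMP, 3.17-fold higher in MPP (adjusted p = 0.00411, and 0.0567 with the run as a block). Itgam, which encodes CD11b, overlapped at 7.24 to 7.97 in MPP and 7.2 to 7.73 in GMP (adjusted p = 0.787). Siglech, a marker of plasmacytoid dendritic cells, was near background throughout, at 1.58 to 3.25. Of the 15 calls 11 were kept with the run as a block, and beside Ctss those of Cx3cr1 (-1.44, adjusted p = 0.185), Clec12a (adjusted p = 0.0749) and Tyrobp (adjusted p = 0.0877) were lost.

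Genes of mast cells, basophils and eosinophils had the lowest median of all lists, at -3.86, and 10 of 16 were higher in GMP with 0 higher in MPP. Hdc, the histidine decarboxylase that makes histamine, was at 8.76, 8.45 and 10.42 in MPP and 14.72, 14.61 and 14.39 in GMP, 41.1-fold higher (adjusted p = 8.13e-05). Cpa3, a mast cell carboxypeptidase, was at 7.58, 7.33 and 8.12 in MPP and 12.59, 12.25 and 12.59 in GMP, 27.8-fold higher (adjusted p = 7.65e-07). Epx, eosinophil peroxidase, was at 8.21, 7.91 and 10.36 in MPP and 15.27, 15.25 and 13.95 in GMP, 63.7-fold higher (adjusted p = 8.89e-04). Its difference of -5.99 was -3.65 with the run as a block (adjusted p = 0.0399). Prg2, the major basic protein of eosinophils, reached 18.59, 17.17 and 16.68 in GMP against 13.43, 12.65 and 14.82 in MPP (adjusted p = 0.00534, and 0.188 with the run as a block). Mcpt8, a basophil protease, Ms4a2 and Fcer1a, chains of the IgE receptor, and Siglecf differed by -4.81, -4.43, -3.87 and -3.80. Il5ra, the interleukin 5 receptor, was not well above background in MPP and was at least 11.5-fold higher in GMP (adjusted p = 0.0114, and 0.251 with the run as a block). Of the 10 calls 7 were kept with the run as a block, without Prg2, Prg3 and Il5ra. The mast cell chymase gene Cma1 overlapped between the groups, at 5.11 to 6.60 in MPP and 6.57 to 7.22 in GMP, but passed as higher in GMP with the run as a block (-1.69, adjusted p = 0.0107). Mcpt1 was above background on none of the 6 arrays. The summed intensity of the list was 167000 to 510000 in GMP and 7900 to 34300 in MPP. Cells of these types inside the GMP gate and their transcripts in the progenitors cannot be told apart in bulk RNA, as holds for every group of genes here: fewer cells of a type and less RNA per cell give the same reading.

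Markers of other lineages were read in the same way. Of 11 megakaryocyte and platelet genes 8 were higher in GMP, among them Itga2b, which encodes CD41, at 4.69, 6.22 and 7.21 in MPP and 10.12, 10.66 and 10.59 in GMP (adjusted p = 6.81e-05). Pf4, platelet factor 4, was 6.35-fold higher in GMP (adjusted p = 6.68e-04). Their summed intensity was 7500 to 13600 in GMP and 2140 to 3520 in MPP. Among 13 erythroid genes, Gata1 was higher in GMP (-2.69, adjusted p = 3.34e-04), as was Tfrc (-0.56), and the globin genes Hbb-b1 (3.86, adjusted p = 2.72e-04) and Hba-a1 (2.61, adjusted p = 0.00959) were higher in MPP. Each direction held 15.4% of the list, against 10.1% of all genes toward GMP and 12.1% toward MPP. Hbb-b1 was at 13.19 ± 0.55 in MPP and 9.33 ± 0.91 in GMP (SD, n = 3 arrays each), with every MPP array above every GMP array. The call of Hba-a1 was lost when the run was a block (adjusted p = 0.0660). Rhag, of the red cell membrane, was above background on none of the 6 arrays. Of 12 B cell genes 0 passed in either direction in limma, and when the arrays were scaled to their 75th percentile instead 3 passed as higher in MPP. With the run as a block 1 passed, Cd22 (0.97, adjusted p = 0.0225). Cd79b, a chain of the B cell receptor, was at 11.38 to 11.83 in MPP and 11.73 to 11.94 in GMP. Among 14 T and NK cell genes 5 were higher in MPP and 1, Gzmb (granzyme B), in GMP (-3.07, adjusted p = 0.00233). These were 35.7% and 7.14% of the list, against 12.1% and 10.1% of all genes. Cd8a was not well above background in GMP and was at least 11.3-fold higher in MPP (adjusted p = 5.66e-07), and Cd5, a receptor of T cells, was higher in MPP as well (2.45). Klrb1c, which encodes NK1.1, was at least 4.52-fold higher in MPP. Of the chains of CD3 none passed, with Cd3e, Cd3d and Cd3g at means of 6.53, 4.01 and 3.01 in MPP and 5.22, 2.88 and 2.22 in GMP. When the run was a block, Cd8b1 (adjusted p = 0.0671) and Trat1 (adjusted p = 0.569) lost their calls toward MPP.

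Of 20 myeloid transcription factors 4 were higher in GMP and 6 in MPP, against 10.1% and 12.1% of all genes. Cebpa, which is needed to form GMP, was at 8.96, 9.30 and 9.07 in MPP and 11.23, 11.64 and 11.89 in GMP, 5.56-fold higher in GMP (adjusted p = 0.00150). Cebpd was 4.75-fold higher in GMP (adjusted p = 5.98e-04). Gfi1, a repressor needed for neutrophils (-1.32, adjusted p = 0.0360), and Runx1 (-0.91, adjusted p = 0.0203) were also higher in GMP, and both lost their call with the run as a block. Spi1, which encodes PU.1, was at 6.0, 5.61 and 7.02 in MPP and 7.67, 7.44 and 7.93 in GMP, and it did not pass (-1.47 ± 0.55 SE, adjusted p = 0.0720). Irf8, a monocyte factor, was bright in both, at 13.45 to 14.05 in MPP and 14.13 to 14.66 in GMP (adjusted p = 0.354). On the MPP side Id2, an inhibitor of E proteins, was at 12.18, 11.95 and 11.72 in MPP and 8.94, 8.46 and 7.99 in GMP, 11.2-fold higher (adjusted p = 3.88e-06). Klf4, a factor known to drive monocytes, was at 14.21 to 14.55 in MPP and 12.41 to 12.73 in GMP, 3.56-fold higher in MPP (adjusted p = 1.64e-06). Nab2 (2.82), Egr2 (2.64), Hhex (1.63) and Jun (1.06) were also higher in MPP, of which Jun lost its call when the run was a block (adjusted p = 0.353). The number of factors higher in GMP was 2 with the run as a block and also 2 when MPP 2, MPP 3, GMP 1 or GMP 2 was left out, a share near that of all genes.

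The oxidase and host defence genes had 6 of 15 higher in GMP and 3 in MPP, or 40% and 20%, against 10.1% and 12.1% of all genes. Alox5, the 5-lipoxygenase of leukotriene synthesis, was 10.9-fold higher in GMP (adjusted p = 4.27e-05). Cybb, the catalytic chain of the phagocyte oxidase, was at 6.50, 6.54 and 8.28 in MPP and 9.71, 9.91 and 9.52 in GMP (adjusted p = 0.00245). Its partners Ncf1 and Cyba differed by -2.13 and -1.32, and the receptor Pilra by -2.84. With the run as a block Cybb had an adjusted p of 0.0671, and of the 6 only Alox5 kept its call. On the MPP side were Nod2, an intracellular sensor of bacterial cell walls (2.07, adjusted p = 0.00362), and the inhibitory receptors Pirb (1.81) and Cd33 (1.62). The number higher in MPP was 3 in each alternative fit.

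Among 25 cytokine receptors 9 were higher in GMP and 4 in MPP, against 10.1% and 12.1% of all genes. Beside Csf1r, the GMP side held Il1rl1, the interleukin 33 receptor (-2.53, adjusted p = 3.77e-05), Il6ra (-1.95), and Csf2rb, the shared beta chain for GM-CSF, IL-3 and IL-5 (-1.58, adjusted p = 0.00284). Il3ra, Ifngr1, Il6st, Il15ra and Tnfrsf1a differed by -1.15, -0.96, -0.88, -0.81 and -0.56. Csf3r, the G-CSF receptor, did not pass, at 9.07, 9.66 and 8.54 in MPP and 9.59, 10.45 and 10.33 in GMP (adjusted p = 0.229), nor did Csf2ra (adjusted p = 0.0853). The MPP side held Il7r, Flt3 and Kit among its 4 genes. FLT3 set the MPP gate, so Flt3 cannot be told apart from the sort, and Kit lost its call with the run as a block (adjusted p = 0.208). The number higher in GMP was 5 with the run as a block, since Csf2rb (adjusted p = 0.0868), Il3ra, Il6st and Tnfrsf1a lost their calls, and Il4ra (1.52) and Il2rg (1.12) gained one toward MPP.

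Most genes read from the machinery for making secreted protein were higher in GMP. Of 34 genes of endoplasmic reticulum folding and secretion 21 were higher in GMP, or 61.8% against 10.1% of all genes. In MPP 0 were higher, and 13 did not pass. The median was -0.84, and all 34 were higher in GMP within the pair on slide 3. P4hb, a protein disulfide isomerase, was at 11.78, 12.00 and 12.20 in MPP and 14.43, 14.62 and 14.67 in GMP, 5.98-fold higher (adjusted p = 2.72e-05). Sdf2l1, a partner of the chaperone BiP, was at 10.22, 10.65 and 10.76 in MPP and 13.17, 13.07 and 13.02 in GMP, 5.84-fold higher (adjusted p = 1.41e-06). The arrays of each group were close and far from those of the other. Dnajc3 (-2.06), Calr (-2.01), the translocon-associated Ssr2 (-1.81) and the oligosaccharyl transferase subunits Ddost (-1.75), Rpn1 (-1.33) and Rpn2 (-1.02) also passed. So did Xbp1, a factor that induces such genes (-1.70, adjusted p = 0.00833), although it did not with the run as a block (adjusted p = 0.185). Hspa5, which encodes BiP itself, overlapped at 14.30 to 14.57 in MPP and 14.52 to 15.20 in GMP (adjusted p = 0.128), and Canx did not differ beyond its error (-0.01 ± 0.17 SE). Of the 21 genes 19 kept their call with the run as a block, and 7 more gained one, among them Hsp90b1 (-1.33) and Sec61b (-1.05).

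Ribosome biogenesis and cell division genes that passed were all higher in GMP. Of 26 ribosome biogenesis genes 14 were higher in GMP and 0 in MPP, with a median of -0.63. Bysl was at 10.55, 10.59 and 10.85 in MPP and 11.83, 11.86 and 11.97 in GMP (adjusted p = 1.72e-05). Rrp12 differed most, by -2.48 (adjusted p = 0.00364), but the pair on slide 3 by -1.09, and it did not pass with the run as a block (-1.08, adjusted p = 0.0908). Fbl, Nop56, Npm1 and Myc, the factor known to drive these genes, overlapped between the groups, Myc at 11.44 to 12.83 in MPP and 11.45 to 11.51 in GMP. With the run as a block 8 of the 14 kept their call. Summed intensity over the list overlapped, at 213000 to 268000 in MPP and 223000 to 290000 in GMP. Of 33 mitosis genes 16 were higher in GMP and 0 in MPP, with a median of -0.49. In the pair on slide 3 31 were higher in GMP, but the unnumbered GMP array was the highest of its group for 26 of the 33, and the summed intensity of the list overlapped, at 163000, 130000 and 144000 in MPP 2, MPP 3 and the unnumbered MPP array and 218000, 167000 and 152000 in the unnumbered GMP array, GMP 1 and GMP 2. Ccnb1, cyclin B1, was at 9.10, 8.89 and 9.29 in MPP and 10.88, 10.52 and 10.62 in GMP, 2.99-fold higher (adjusted p = 2.44e-05). Cdk1, its kinase, was 2.60-fold higher (adjusted p = 2.35e-04) and Plk1 2.38-fold (adjusted p = 4.39e-04). Mki67 overlapped at 13.71 to 13.91 in MPP and 13.85 to 14.44 in GMP, and passed as higher in GMP when the run was a block (-0.65, adjusted p = 0.0186). The number of mitosis genes higher in GMP was 9 without MPP 3, and 12 of the 16 kept their call when the run was a block, while Mki67, Aurka, Aurkb, Kif20a and Cenpe gained one. Of 31 DNA replication genes 9 were higher in GMP and 0 in MPP, led by Cdc45, a helicase subunit, at 7.18, 7.23 and 7.88 in MPP and 9.74, 9.71 and 10.37 in GMP (adjusted p = 3.21e-05), and by the nuclease Fen1 (-1.99). Of these 9 calls 5 were kept when the run was a block, without Mcm2, Mcm5, E2f1 and Ccne1, and Gins1, Rfc4 and Rfc5 gained one toward GMP. Summed intensity over the replication genes overlapped too, at 258000 to 289000 in MPP and 279000 to 293000 in GMP. Pcna was at 15.14, 15.09 and 14.24 in MPP and 14.27, 14.12 and 14.37 in GMP, a difference of 0.57 with an adjusted p of 0.122.

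The brakes of the cell cycle that passed lay on the other side. Of 17 genes of their list 9 were higher in MPP, or 52.9% against 12.1% of all genes. In GMP 1 was higher, the cyclin gene Ccnd3 (-1.08), and 7 did not pass. Trp53inp1, a target of p53, was at 11.41 ± 0.36 in MPP and 7.98 ± 0.17 in GMP (SD, n = 3 arrays each), 10.8-fold higher in MPP (adjusted p = 2.49e-06). Cdkn1b, which encodes p27, was at 9.64, 9.69 and 9.70 in MPP and 8.94, 8.75 and 8.71 in GMP, a difference of 0.87 that was small but several times the spread within each group (adjusted p = 2.97e-04). Cdkn1a (p21), Cdkn1c (p57), Ccng2, Btg1, Cdkn2d and Rbl2 differed by 2.40, 1.75, 1.64, 1.33, 1.16 and 0.72. Ccnd1, cyclin D1, which promotes rather than brakes division and stood in the list as a partner of these inhibitors, was 3.90-fold higher in MPP (adjusted p = 5.47e-05). Of the 10 calls 7 were kept when the run was a block, without Ccnd3 (adjusted p = 0.432), Cdkn2d (adjusted p = 0.0809) and Rbl2 (adjusted p = 0.453), and Cdkn2b and Ccnd2 gained one toward MPP. Cdkn2a was above background on none of the 6 arrays.

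**Figure D2:**
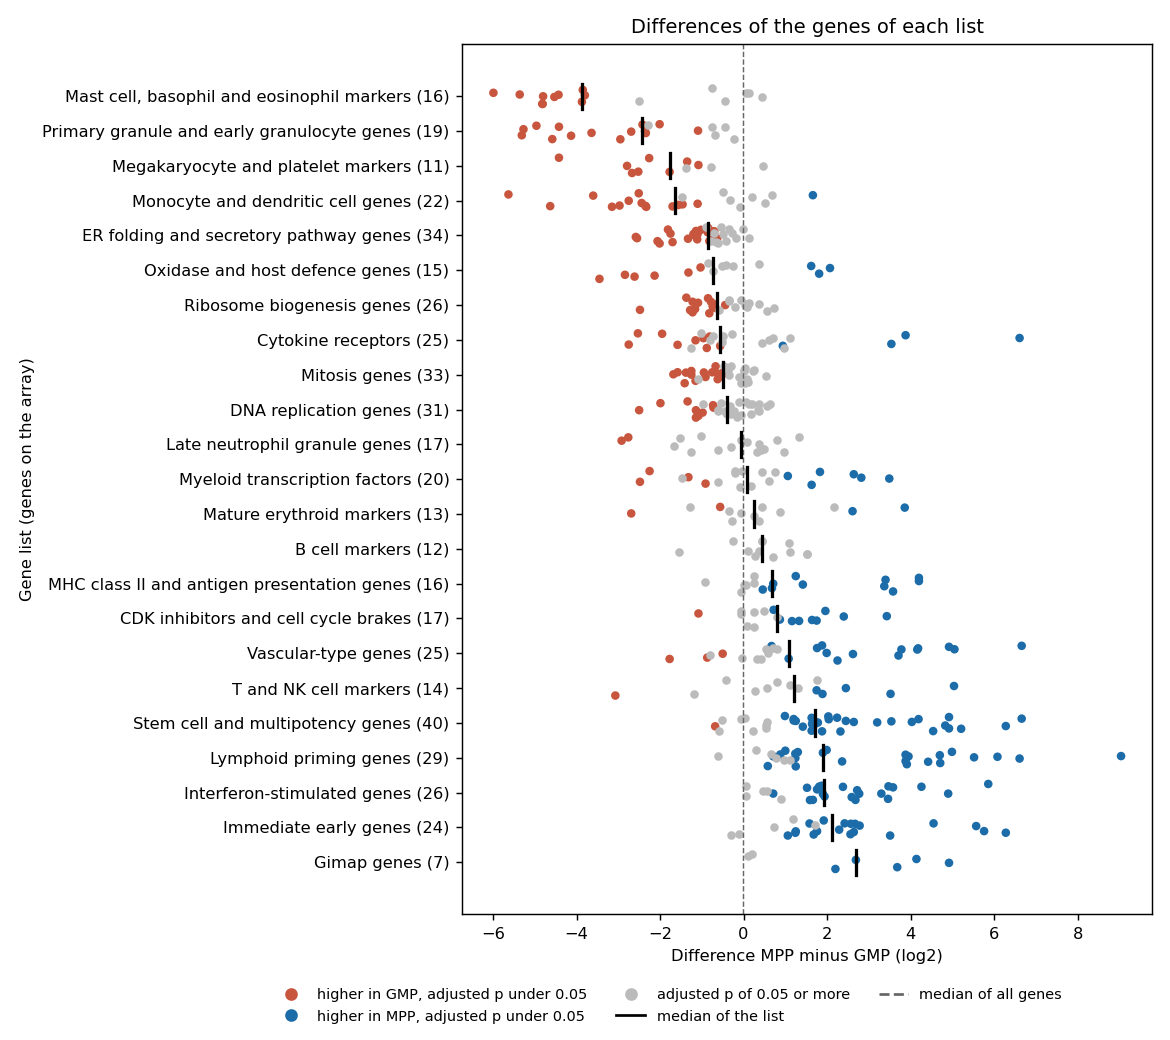
Difference MPP minus GMP (log2, x axis) of each gene of 23 lists (rows, with the number of genes on the array). Red and blue points passed at an adjusted p under 0.05, grey points did not, black bars are list medians and the dashed line is the median of all genes at -0.01. List medians ran from -3.86 for mast cell, basophil and eosinophil markers to 2.69 for Gimap genes.

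Genes of stem cells and multipotency were higher in MPP in 31 of 40 cases, against 12.1% of all genes, with a median of 1.71. Hlf, a stem cell transcription factor, was at 13.14, 13.16 and 12.65 in MPP and 7.88, 8.44 and 7.88 in GMP, 30.2-fold higher in MPP (adjusted p = 4.01e-08). Procr, which encodes the protein C receptor EPCR, was at 11.23, 11.57 and 11.17 in MPP and 6.82, 6.02 and 6.39 in GMP, also 30.2-fold higher (adjusted p = 2.49e-07). Mycn, the N-Myc factor, was at 9.91, 10.32 and 9.23 in MPP and 5.09, 5.74 and 5.0 in GMP, 23.3-fold higher (adjusted p = 8.60e-05). In each of these the groups stood far apart on every array. Homeobox genes passed for Hoxa5 (4.03), Hoxa9 (2.45), Hoxa7 (1.68), Hoxb3 (1.63) and Hoxb5 (1.64), and Hoxa10 was not well above background in GMP and at least 18.5-fold higher in MPP (adjusted p = 2.10e-08). Hoxa9 was at 9.88, 10.28 and 10.24 in MPP and 7.70, 7.73 and 7.60 in GMP. Their partner Meis1 differed by 2.64 (adjusted p = 5.16e-06) and Mllt3 by 2.24. Gata3 and Fgd5 were not well above background in GMP and at least 18.4-fold and 4.54-fold higher in MPP. The factors Erg (2.03), Prdm16 (1.78), Lmo2 (1.63), Bmi1 (1.25) and Tal1 (1.2) passed with smaller differences.

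A single gene of this list passed in the other direction, and 3 more had negative differences that did not pass. Gata2, a factor of stem cells and also of mast cells and basophils, was at 10.92, 10.92 and 10.60 in MPP and 11.48, 11.52 and 11.48 in GMP, 1.60-fold higher in GMP (adjusted p = 0.00633). Of the genes that did not pass, Slamf1 (CD150) and Abcb1a were above background on none of the 6 arrays, and Tek was at 3.71 to 4.98 in MPP and 3.54 to 4.23 in GMP. Hoxb4 and Abcg2 were measured in both groups and overlapped. With the run as a block 29 of the 32 calls of the list were kept, without Hoxb3, Angpt1 and Bmi1.

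Lymphoid priming genes gave the largest single difference of the comparison among genes measured in both groups. Dntt, terminal deoxynucleotidyl transferase, which adds bases at the joints of immune receptor genes (probe at chr19:41133936-41133995 of mm9), was at 17.56, 17.20 and 17.41 in MPP and 8.49, 8.88 and 7.69 in GMP. It was 526-fold higher in MPP (adjusted p = 1.78e-07), and its 3 probes all passed. Of 29 genes of the list 23 were higher in MPP and 0 in GMP, with a median of 1.90, and all 23 kept their call with the run as a block, when 1 more gene passed toward MPP and 1 toward GMP. Flt3, the receptor of the MPP gate, is counted among the 23. Il7r, the interleukin 7 receptor, was at 9.46, 9.01 and 9.68 in MPP, was not well above background in GMP, and was at least 35.2-fold higher in MPP (adjusted p = 1.72e-06). Ltb, lymphotoxin beta, was at 13.57, 13.95 and 12.18 in MPP and 6.52, 7.54 and 7.41 in GMP, 67.5-fold higher (adjusted p = 1.69e-05).

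Signalling genes of lymphocytes belonged to the same group. Blnk, the adaptor of the B cell receptor, was at 12.73, 12.06 and 12.88 in MPP and 7.67, 6.75 and 6.67 in GMP, 46.0-fold higher in MPP (adjusted p = 2.30e-06). Lck, the kinase of the T cell receptor, was at 10.84, 10.70 and 10.81 in MPP and 5.89, 6.13 and 6.20 in GMP, 26.2-fold higher (adjusted p = 8.07e-08). Rag1, the recombinase, was not well above background in GMP and at least 6.36-fold higher in MPP (adjusted p = 0.00121). Ccr9, a receptor for homing to the thymus, differed by 4.42, and Ccr7, Hes1 and Lax1 were at least 6.75-fold, 9.36-fold and 20.2-fold higher in MPP. Factors of the lymphoid path differed by less: Tcf4 (2.36), Satb1 (1.90), Ikzf1 (1.3), Bcl11a (1.24), Mef2c (1.24), Notch1 (1.0) and Tcf3 (0.71). Ebf1 passed as well, but its probe was above background on none of the 6 arrays, and Rag2 was above background on 1 MPP array, so neither has a measured level in GMP.

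**Figure D3:**
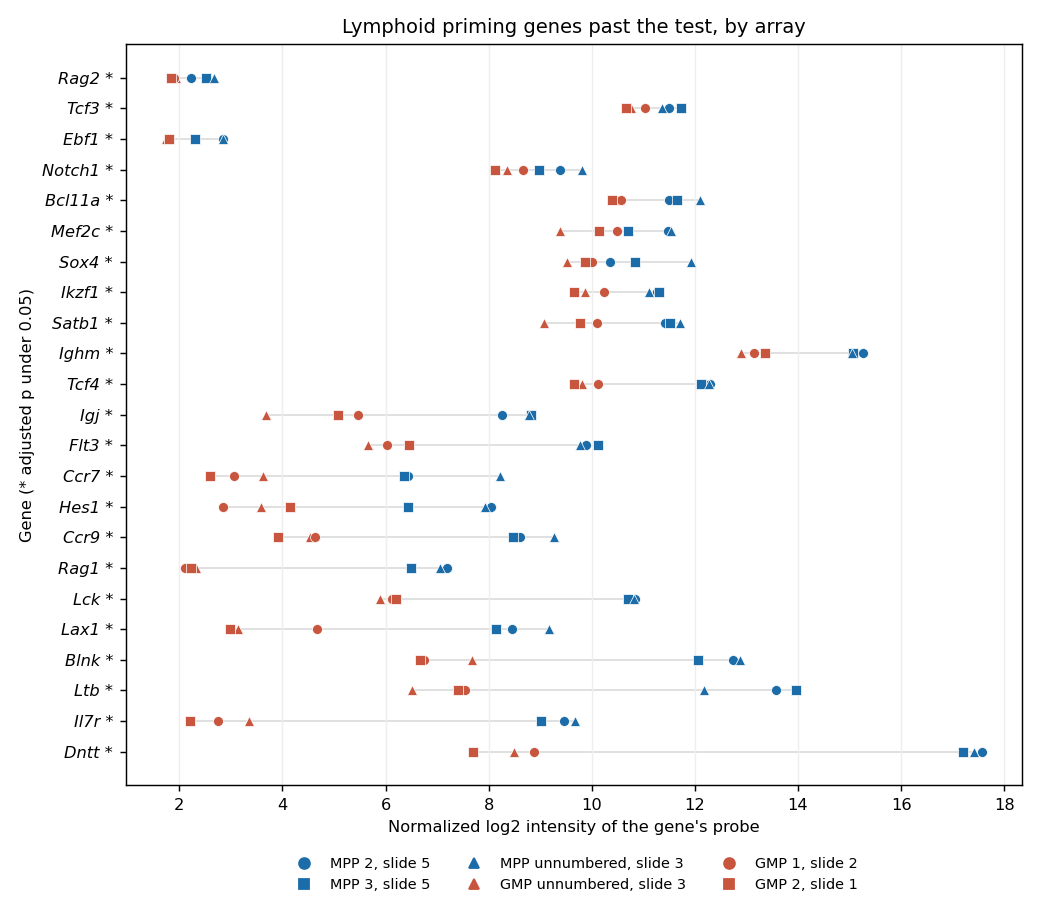
Normalized log2 intensity (x axis) of the 23 lymphoid priming genes that passed at an adjusted p under 0.05 (rows) on each MPP array (blue) and GMP array (red), with triangles for the pair on slide 3. For each of these genes every MPP array lay above every GMP array, from Rag2 near background to Dntt at 17.20 or more against 8.88 or less.

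Genes best known from vessels, many of which stem and multipotent cells share, were higher in MPP for 14 of 25 and in GMP for 3. These were 56% and 12% of the list, against 12.1% and 10.1% of all genes. Robo4, a guidance receptor, was at 12.38, 12.34 and 12.30 in MPP and 4.93, 6.17 and 5.95 in GMP, 101-fold higher in MPP (adjusted p = 2.63e-08). Emcn, the sialomucin endomucin, was at 11.15, 11.25 and 11.33 in MPP and 6.14, 6.15 and 6.28 in GMP, 33.2-fold higher (adjusted p = 5.00e-08). Calcrl, the adrenomedullin receptor, was 13.7-fold higher in MPP (adjusted p = 3.58e-06), and its partner Ramp2 was not well above background in GMP and at least 12.5-fold higher (adjusted p = 2.50e-05). The 3 genes higher in GMP were Vwf, von Willebrand factor (-1.77, adjusted p = 4.85e-04), Pecam1 (-0.87) and Icam2 (-0.50). Of the 17 calls 12 were kept when the run was a block, and Pecam1 (adjusted p = 0.154), Icam2 (adjusted p = 0.0810), Cdh5, Mmrn1 and Cav1 lost theirs. Of the 25 genes 3 were above background on none of the 6 arrays (Sox18, Clec14a and Mmrn2), and Cdh5, VE-cadherin, which was counted as higher in MPP, was above background on 1 MPP array and on none of the GMP arrays.

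Gimap genes, GTPases of lymphocyte survival that lie in 1 cluster, were higher in MPP for 5 of 7, and Gimap3 and Gimap4 were at or near background in both groups. Gimap6 was at 11.68, 11.92 and 12.36 in MPP and 7.02, 7.15 and 7.03 in GMP, 30.3-fold higher (adjusted p = 6.38e-08). Gimap5 and Gimap1 differed by 4.14 and 3.68. The summed intensity of the 7 probes was 10300 to 12500 in MPP and 755 to 789 in GMP.

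Antigen presentation genes were higher in MPP for 10 of 16, with 0 higher in GMP. The difference lay mostly in class II. Cd74, the invariant chain, was at 13.95, 14.20 and 14.47 in MPP and 10.30, 10.16 and 9.56 in GMP, 18.3-fold higher in MPP (adjusted p = 2.59e-05). H2-Ab1 was at 14.98, 15.30 and 14.91 in MPP and 11.13, 11.71 and 11.61 in GMP, 12.0-fold higher (adjusted p = 3.00e-04). H2-Eb1 and H2-Aa were 18.4-fold and 10.3-fold higher, and Ciita, the activator of class II genes, was at 9.22, 9.78 and 10.41 in MPP and 7.07, 6.18 and 5.94 in GMP (adjusted p = 0.00184). Of the class I path H2-K1 (1.42) and B2m (0.71) passed, whereas H2-D1 overlapped, at 15.03 to 15.53 in MPP and 14.94 to 15.81 in GMP, and Tap1, Tap2 and Tapbp overlapped. When the run was a block, H2-D1 passed as higher in MPP (0.82, adjusted p = 0.0321) and Psmb9 (0.46) lost its call. Probes of the H2 genes may read more than 1 of these similar genes.

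Immediate early genes, the first transcripts after stimulation, were higher in MPP for 19 of 24, with 0 higher in GMP and a median of 2.11. Nr4a1, a nuclear receptor, was at 17.24, 16.56 and 17.33 in MPP and 10.51, 11.28 and 10.51 in GMP, 77.9-fold higher (adjusted p = 1.10e-06). Socs3, a brake on cytokine signals, was at 13.26, 13.34 and 13.40 in MPP and 7.35, 8.04 and 7.91 in GMP, 47.6-fold higher (adjusted p = 1.14e-07). Egr1 was at 14.18, 14.64 and 13.72 in MPP and 10.90, 10.95 and 10.15 in GMP, 11.4-fold higher (adjusted p = 1.35e-05), and Fos was 6.87-fold higher (adjusted p = 0.00140). Every MPP array was above every GMP array for these genes. Egr3 was not well above background in GMP and at least 13.2-fold higher in MPP. Rgs1 (4.55), Fosb (2.57), Atf3 (2.56), Junb (2.42) and Zfp36 (2.29) also passed. Klf2 was different, at 14.34, 14.50 and 17.08 in MPP and 16.97, 14.62 and 15.22 in GMP, high on both arrays of slide 3 (adjusted p = 0.869). Such genes also respond to cell isolation, and MPP and GMP came from separate sorts, whose part in these differences was not tested. With the run as a block 17 of the 19 kept their call and Gadd45b (2.22) gained one. The motif of the cyclic AMP response, TGACGTCA on either strand, was held by the windows of 2 of 15 genes that passed, Dusp1 and Btg2, against 2.03% of all genes with a window.

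Interferon-stimulated genes were higher in MPP for 21 of 26, with 0 higher in GMP, a median of 1.92, and all 26 higher in MPP within the pair on slide 3. Rtp4 was at 12.83, 12.96 and 12.53 in MPP and 8.67, 8.24 and 8.64 in GMP, 19.1-fold higher (adjusted p = 8.07e-08). Iigp1, a GTPase of cell defence, was at 10.80, 10.90 and 10.42 in MPP and 5.02, 4.2 and 5.30 in GMP, 58.2-fold higher (adjusted p = 8.09e-07). Ifit3, Oas2, Rsad2 and Oasl2, which act against viral RNA or viral replication, differed by 3.58, 3.47, 3.46 and 3.30. Ifit1 was 6.83-fold higher in MPP (adjusted p = 3.79e-05) and Isg15, a ubiquitin-like protein, 3.65-fold (adjusted p = 0.00172). Stat2, a factor that carries the interferon signal, differed by 0.06 ± 0.33 (SE) and did not pass, whereas Irf7 differed by 1.90 (adjusted p = 0.0175). Mx1, Ifit2 and Oas1a did not pass. With the run as a block 19 of the 21 kept their call, without Ifi205 and Bst2.

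The interferon response element, searched on either strand as a pair of GAAA repeats with 2 bases between them, was held by the windows of 9 of 14 of these genes, against 3.99% of all genes with a window. In these lines, on the strand of the gene in GRCm38.p6, the capitals mark the element, which in Ifit1 and Gbp2 is read on the other strand. It lies 85, 72, 59 and 35 bases before the start.
Ifit1, chr19:34640794-34640823 (+): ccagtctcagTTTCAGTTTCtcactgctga
Isg15, chr4:156200871-156200900 (-): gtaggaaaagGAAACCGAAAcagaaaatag
Gbp2, chr3:142620594-142620623 (+): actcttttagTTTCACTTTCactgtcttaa
Ifi203, chr1:173942508-173942537 (-): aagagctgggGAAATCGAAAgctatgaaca
The motif was searched after the values of the list were known.

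The genes with the largest differences were then named by rule over all genes, with the sort markers and the members of the lists above included. They had a gene symbol (clone names were left out), passed, did not overlap and had the same sign within the pair on slide 3. On the GMP side and above background on at least 1 array of each group, these were Dmkn, Epx, Fcgr3, Trem2, Chst13, Cldn15, Ly6c1, Gda, Gpx3 and Hdc, with differences from -6.04 to -5.36. Trem2, a lipid receptor of macrophages, was at 3.93, 4.92 and 6.32 in MPP and 10.93, 10.36 and 10.93 in GMP, 51.6-fold higher in GMP (adjusted p = 2.34e-04). Chst13, a sulfotransferase of chondroitin, was at 4.32, 3.36 and 5.57 in MPP and 9.95, 10.26 and 10.09 in GMP, 51.4-fold higher (adjusted p = 4.21e-05). Cldn15, a tight junction claudin, was at 5.26, 6.10 and 7.63 in MPP and 11.83, 12.11 and 11.96 in GMP, 49.8-fold higher (adjusted p = 6.23e-05). For Dmkn, Gda (guanine deaminase) and Gpx3 (extracellular glutathione peroxidase) 1 of the 3 MPP arrays was above background, the unnumbered array was the highest at 4.39, 4.66 and 4.45, and their GMP arrays lay between 8.25 and 9.18, so that the size and rank of their differences rest on values near background. In all 10 genes the unnumbered MPP array was the highest of its group, and the pair on slide 3 differed by -4.91 to -3.94 where the fit gave -6.04 to -5.36. The ST-HSC mean also lay above the MPP mean in all 10, such as 10.77 against 7.66 for Fcgr3 and 12.48 against 9.21 for Hdc. Not well above background in MPP were Serpine2, an inhibitor of thrombin and urokinase, Tctex1d1, the kinase gene Rps6ka2, Hal (histidine ammonia lyase) and the growth factor gene Fgf3, which were at least 27.8-fold, 23.2-fold, 22.5-fold, 19.8-fold and 17.4-fold higher in GMP.

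On the MPP side the genes above background on at least 1 array of each group were Dntt, Slc16a11, Robo4, Myl10, Nr4a1, Bdh2, Wfdc17, Ltb, Gas6 and Iigp1, with differences from 5.86 to 9.04. Slc16a11, a member of the monocarboxylate transporter family, was at 13.36, 13.54 and 13.36 in MPP and 5.51, 6.45 and 5.6 in GMP, 189-fold higher in MPP (adjusted p = 1.14e-07). Myl10, a myosin light chain, was at 13.09, 13.30 and 12.56 in MPP and 6.99, 5.88 and 6.99 in GMP, 82.5-fold higher (adjusted p = 4.64e-06). Bdh2, a dehydrogenase, was at 10.41, 10.58 and 10.06 in MPP and 4.27, 3.88 and 4.55 in GMP, 69.3-fold higher with the smallest adjusted p of all, 1.26e-08, though only 2 of the 3 GMP arrays were above background. Wfdc17 was 68.0-fold higher (adjusted p = 2.55e-06), and Gas6, the ligand of the Tyro3, Axl and Mer receptors, was at 10.57, 10.90 and 10.84 in MPP and 4.12, 5.31 and 5.17 in GMP, 59.9-fold higher (adjusted p = 1.84e-06). Gas6 and Iigp1 were likewise above background on 2 of the 3 GMP arrays. Not well above background in GMP were Ddx4, an RNA helicase known from germ cells, Emp1, Sgsm1, Wfdc18 and Hey1, a Notch target, which were at least 165-fold, 102-fold, 89.1-fold, 80.8-fold and 47.2-fold higher in MPP. Ddx4 was at 11.59, 11.54 and 11.72 in MPP. Hey1 was uneven there, at 10.67, 8.10 and 10.65.

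CMP, the stage placed between the populations in the myeloid tree, lay between the MPP and GMP means for 2334 of the 2851 genes higher in GMP and for 2899 of the 3411 higher in MPP. Every CMP array shared a slide with a GMP array and came from the same kind of myeloid sort, whereas 2 of the 3 MPP arrays lay on another slide, so the place of CMP cannot be told apart from slide, run and sort. At the median gene CMP had covered 69.4% of the way from MPP to GMP in the former and 63.0% in the latter. MPP against CMP gave 12.3% of genes past the test and CMP against GMP 5.49%, and these comparisons share the CMP arrays with each other and the MPP or GMP arrays with the present one. Dntt was at 17.39 in MPP, 15.20 in CMP and 8.35 in GMP, so most of its difference lay after CMP (6.85, adjusted p = 1.24e-05, against 2.19, adjusted p = 0.0172). Hlf was at 12.98, 9.32 and 8.06, with most of its difference before CMP (3.66 against 1.25). Csf1r was at 8.95, 11.62 and 11.70, level between CMP and GMP. Elane was at 9.23, 11.08 and 14.50, and passed between CMP and GMP (adjusted p = 0.0463) but not between MPP and CMP (adjusted p = 0.197). Outside this order lay 517 of the genes higher in GMP and 512 of those higher in MPP, such as Gfi1, lowest in CMP at 8.99, and Gata1, highest in CMP at 10.13. Over the megakaryocyte and the erythroid lists the median difference of MPP minus CMP was -3.71 and -1.96 and that of CMP minus GMP 1.63 and 1.78, with Itga2b at 6.04 in MPP, 11.72 in CMP and 10.45 in GMP.

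**Figure D4:**
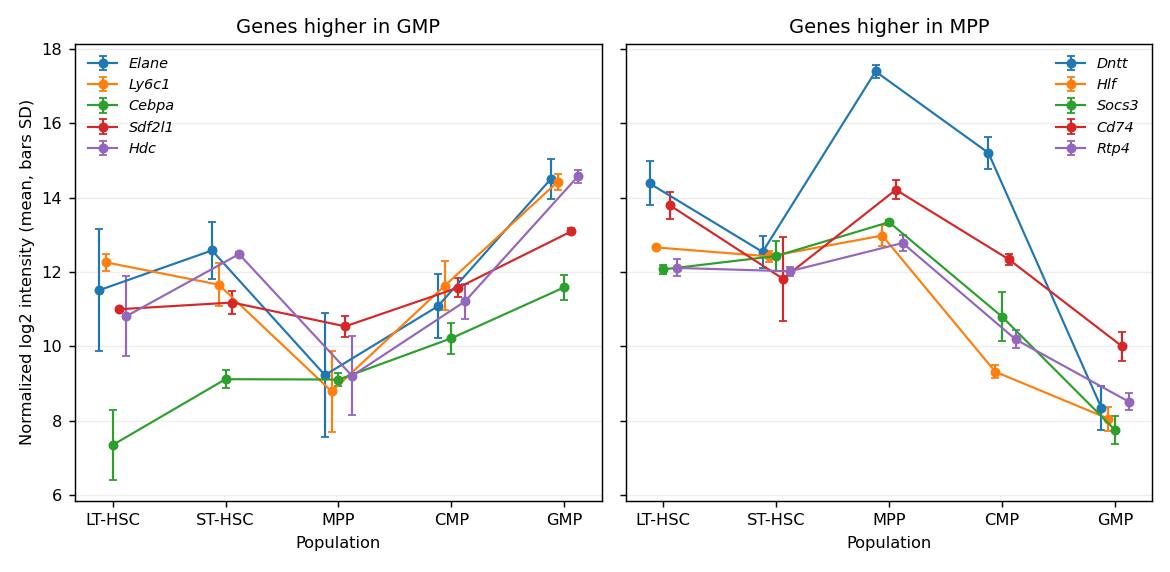
Mean normalized log2 intensity (y axis, bars are SD over 3 arrays, 2 for LT-HSC) of 5 genes higher in GMP (left) and 5 higher in MPP (right) in the populations from LT-HSC to GMP. Elane had a mean of 9.23 in MPP, below its means of 11.51 in LT-HSC and 12.58 in ST-HSC, and Dntt had its highest mean in MPP at 17.39.

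The size of the differences was set beside that of the only pair that shared a slide and a run. Over 480 genes of the lists, 279 passed and all 279 had the same sign in the pair. The pair is part of the 3 against 3 arrays and is no independent sample. For Dntt and Robo4 the pair differed by 8.92 and 7.37 where the fit gave 9.04 and 6.66, and for Elane and Ms4a3 by -3.95 and -4.30 where the fit gave -5.27 and -5.31.

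**Figure D5:**
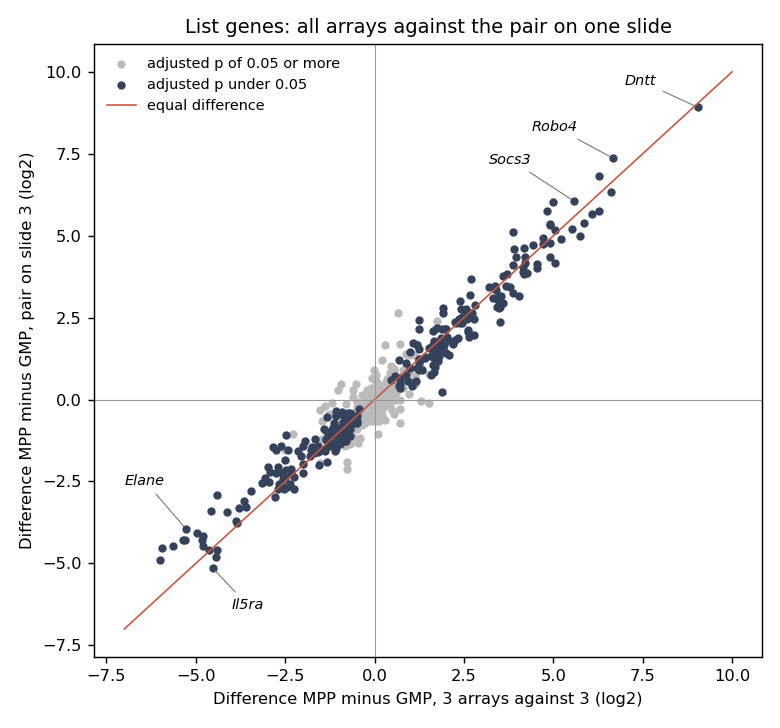
Difference MPP minus GMP (log2) of the 480 list genes in the fit of 3 against 3 arrays (x axis) and between the unnumbered arrays of slide 3 (y axis), with the red line at equal difference. Genes higher in MPP lie along the line, while several genes with the most negative differences, such as Elane, lie nearer to 0 in the pair.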

How the data were processed

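Total RNA from sorted cells was hybridised to Agilent mouse arrays of 1 colour, and the deposited scanner files hold the intensity of each spot, background-subtracted by the Feature Extraction software of the authors' service (version 9.5.3.1 for run 1, 10.2.1.3 for runs 2 and 3). The log2 values of a second table deposited by the authors were normalized across arrays by them and served only as an alternative. Here log2 processed intensities were quantile-normalized over the 17 arrays, control and outlier spots were left out, and spots of a probe were averaged, leaving 41174 probes. limma 3.58.1 (R 4.3.3) was fitted with 1 mean per population over all 17 arrays, and p-values were adjusted by the Benjamini-Hochberg method over all probes at 0.05. A gene was read at its brightest probe. Of the probes 24844 were named by accession, 6045 by symbol and 1810 by synonym, and 8475 kept the name of the file. Probe positions are on mm9 and promoters on GRCm38.p6.

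Where no array of a group was well above background, the fold is a bound against the lowest signal well above background on each array, "at least N-fold". Genes with the largest differences were named if they had a gene symbol rather than a clone or accession name, passed, did not overlap, had the same sign within the pair on slide 3 and were well above background on all 3 arrays of the higher group, 10 above background on at least 1 array of the lower group and 5 bounded in each direction. The members and gene lists were chosen with earlier results of these data known, and the motifs after the values of the lists were seen. Replicates are pools of mice, and p-values measure the spread between these arrays, whose small number sets the precision. The script was tested on simulated data with 200 planted differences among 41174 probes. It recovered 22% of those of 1 log2 unit, 58% at 2, 76% at 3 and 88% at 4. A gene that did not pass may therefore still differ. Alternatives were the scaling, background correction, dim probes, probe choice, run, slide and replicate blocks, the arrays in the fit, and leaving out each array. Some genes of the lists are counted but not reported by name here.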

Additional observations from a re-analysis of the deposited data

How the results depend on the processing

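With the scanning run as a block 6113 probes passed, against 9258, and 4450 genes against 6262, of which 3563 were shared in the same direction. The number of genes ran from 4415 (without MPP 2) to 7424 (without the unnumbered MPP array) when 1 array was left out, and of probes from 6264 to 10864. Scaling to the 75th percentile gave 3556 genes higher in MPP and 2240 in GMP, while averaging the probes of each gene gave 2844 and 3162, against 3411 and 2851, so the balance of directions depends on these choices. The sign of the 6262 genes was the same for 6261 at the 75th percentile, 6258 after normexp correction, 6214 within the pair on slide 3 and 6098 with probes averaged per gene. The median of all genes was 0.18 without dim probes. The groups share only replicate number 2, whose deviations correlated at -0.02. The unnumbered arrays, which do share a slide, gave 0.05, so this measure cannot tell whether the number pairs arrays. The replicate block, with the unnumbered arrays as a level of their own, gave 9746 probes and 6635 genes. Kit and Fcgr2b lost their call with the run as a block, and Kit also in a fit of the 6 arrays alone and without MPP 3. The cause of these changes was not tested.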
